A study of Homo sapiens with 4 samples.

Results

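The genes described here are 29 genes of antigen presentation by the major histocompatibility complex (MHC), taken as a list of symbols from the platform annotation, out of 19775 named genes on the arrays. Of these, 18 belong to the class I pathway and its peptide supply and 11 to the class II pathway. All 84 probe sets annotated to 1 of these genes were examined, 53 for class I and 31 for class II genes. A gene's value is that of its brightest probe set (highest mean of log2 signals over the arrays), and the others are described beside it.

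The study sorted PC14, an established human non-small-cell lung cancer line, by fluorescence-activated sorting on E-cadherin, high or low. Either fraction was split once more into CD133-high and CD133-low fractions by a lentiviral green fluorescent protein reporter under the P1 promoter of the CD133 gene. This gave 4 groups of 1 array each, hybridised with total RNA: epithelial-type E-cadherin-high and mesenchymal-type E-cadherin-low cells, either CD133-high or CD133-low. All 4 groups come from 1 line, and the labels name no drug or cytokine. CD133 status rests on reporter activity, since PROM1, the gene for CD133, read at most 29.7 and lay below the floor described below on all 4 arrays.

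MHC class I molecules consist of a heavy chain and beta-2-microglobulin and carry peptides from the cytosol to the cell surface, where CD8 T cells read them. The proteasome cuts the peptides, the transporter TAP moves them into the endoplasmic reticulum, the aminopeptidases ERAP1 and ERAP2 trim them, and chaperones load them. Class II molecules carry peptides from endosomes to CD4 T cells and are made mainly by professional antigen-presenting cells, although lung epithelial cells can make them too. CIITA switches on the class II genes and NLRC5 the class I genes, and interferon-gamma induces both pathways.

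The values are MAS5 signals, in linear intensity units scaled by the submitters to a common mean per array. In each sentence that gives 2 values for a CD133 state, the E-cadherin-high array comes first and the E-cadherin-low array second. The table has no detection calls, so the 50th percentile of each array, a signal of 53.7 to 60.3, served as its floor, and a ratio with 1 array at the floor is a lower bound, written "at least". Of the 29 genes, 25 passed the floor on 1 array or more and 21 on all 4. CDH1, the gene for E-cadherin, read 5548 and 347.0 in CD133-high and 3546 and 527.8 in CD133-low cells, so it followed the sort. Each difference below compares single arrays and has no replicate check. These are bulk samples, so fewer cells with a transcript and less of it per cell cannot be told apart.

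The class I heavy chain genes had signals far above the floor in all 4 subpopulations, and HLA-B, HLA-E and HLA-F had their lowest signal in E-cadherin-low CD133-low cells. HLA-B, a classical heavy chain, read 11988 and 11924 in CD133-high and 11308 and 9028 in CD133-low cells. HLA-C, the other classical heavy chain listed, read 12110 and 10625 in CD133-high and 17514 and 10959 in CD133-low cells. On these probe sets neither gene separated the CD133 states by more than 1.45-fold in either E-cadherin state. Other probe sets did so by up to 1.47-fold for HLA-B and 1.52-fold for HLA-C. HLA-E, which presents leader peptides to natural killer cell receptors, read 4439 and 4476 in CD133-high and 5158 and 2937 in CD133-low cells. HLA-F, a nonclassical heavy chain, read 2368 and 3193 in CD133-high and 3556 and 1849 in CD133-low cells. For both genes the highest and the lowest array were the 2 CD133-low arrays, which differed by 1.76-fold for HLA-E and 1.92-fold for HLA-F. HLA-G, known for immune tolerance at the placenta, read 5442 and 5292 in CD133-high and 3126 and 3955 in CD133-low cells. Its CD133-high arrays thus lay above both CD133-low arrays, as for 25.2% of all genes above the floor on at least 3 arrays. B2M, the shared light chain, read 24072 and 23217 in CD133-high and 27711 and 24253 in CD133-low cells, and differed by at most 1.15-fold in any pair compared. A B2M probe set of similar brightness read 22918 and 22662 in CD133-high and 29238 and 23711 in CD133-low cells, with a difference of up to 1.28-fold, and the last of its 3 passed the floor on 1 array.

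The heavy chain values carry a limit of the array design. Of the 17 heavy chain probe sets, 15 have IDs ending in _x_at, which marks probes that can also match other transcripts, and the heavy chains are close paralogs. Signals of HLA-B, HLA-C, HLA-E, HLA-F and HLA-G are therefore uncertain as to which gene they count. The 13 probe sets of HLA-B, HLA-C, HLA-E and HLA-F were all lower in E-cadherin-low than in E-cadherin-high cells among CD133-low cells, with log2 ratios of -0.94 to -0.32, where 49.6% of all genes were lower. Among CD133-high cells 4 of the 13 were lower and 9 higher, with log2 ratios of -0.19 to 0.67, against 45.6% and 48.3% of all genes. The 2 heavy chain probe sets without that suffix, 1 each for HLA-E and HLA-F, had log2 ratios of -0.71 and, as a bound, -0.91 in CD133-low cells. The 4 HLA-G probe sets did not go the same way: 2 were higher and 2 lower in CD133-high cells among E-cadherin-low cells, where 48.4% of all genes were higher.

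**Figure D1:**
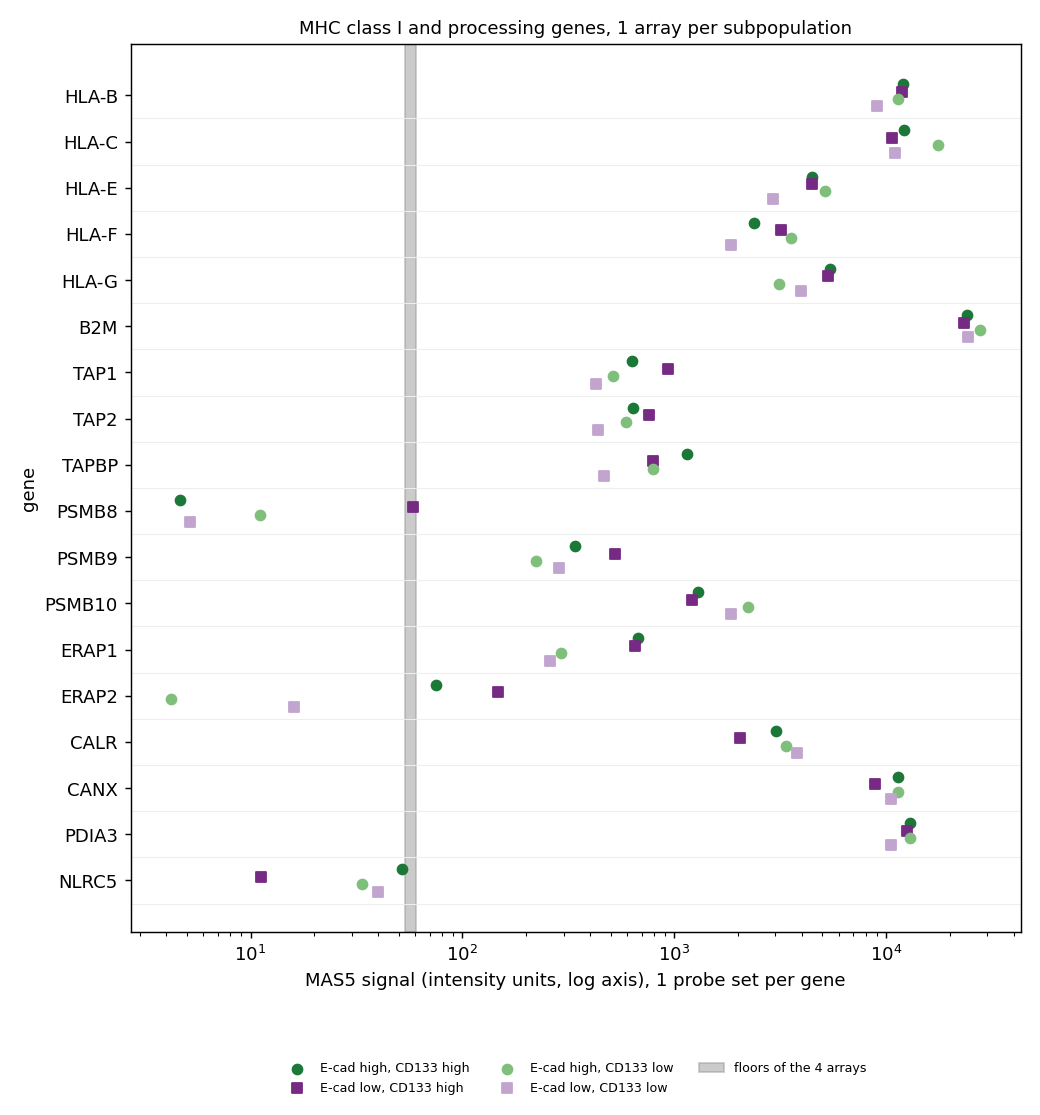
Signal of the 18 class I and processing genes on the 4 arrays (x axis, MAS5 intensity on a log axis; y axis, gene). Each point is 1 array, and the grey band spans the floors of 53.7 to 60.3. ERAP1 and ERAP2 show the 2 CD133-high arrays to the right of the 2 CD133-low arrays, and PSMB8 and NLRC5 lie below the floor on all 4 arrays.

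Of the peptide-trimming enzymes, ERAP1 had higher signals in CD133-high cells of either E-cadherin state. It read 670.4 and 652.2 in CD133-high and 293.2 and 259.6 in CD133-low cells, which is 2.29-fold and 2.51-fold. This probe set was higher with CD133 without overlap, as were 25.2% of all genes above the floor on at least 3 arrays. On this probe set E-cadherin made a difference of at most 1.13-fold. Another ERAP1 probe set above the floor on all 4 arrays gave log2 ratios of 1.18 and 1.80 for CD133. A further one gave 0.84 and 0.11, so it shared the direction but not the size. With E-cadherin, the former was lower by 1.49-fold in E-cadherin-low cells among CD133-low cells, and the latter by 2.03-fold among CD133-high cells. The other 2 ERAP1 probe sets lay below the floor throughout. ERAP2, which trims peptides together with ERAP1, read 75.3 and 147.8 in CD133-high cells and lay below the floor in CD133-low cells, at least 1.31-fold and at least 2.59-fold higher. Of its 5 probe sets this was the only one above the floor on any array.

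The TAP transporter genes were highest in E-cadherin-low CD133-high and lowest in E-cadherin-low CD133-low cells. TAP1 read 628.2 and 937.8 in CD133-high and 514.7 and 424.6 in CD133-low cells, a CD133 difference of 1.22-fold among E-cadherin-high cells and of 2.21-fold among E-cadherin-low ones. TAP2, the partner chain of the transporter, read 636.9 and 757.0 in CD133-high and 592.6 and 437.1 in CD133-low cells. In both genes the CD133-high arrays lay above both CD133-low arrays, as for 25.2% of all genes above the floor on at least 3 arrays. The 3 TAP2 probe sets above the floor were all higher with CD133 in E-cadherin-low cells, by log2 0.46 to 0.80, and differed in E-cadherin-high cells, with -0.99, a bound, to 0.10. TAPBP, the tapasin that bridges TAP and class I, read 1151 and 793.2 in CD133-high and 796.4 and 463.8 in CD133-low cells. It was lower in E-cadherin-low cells by 1.45-fold and 1.72-fold, and higher in CD133-high cells by 1.45-fold and 1.71-fold. Its other 2 probe sets, nearer the floor, gave CD133 log2 ratios of -0.10 and -0.02 and of 0.33 and 0.00, the last with both arrays below the floor.

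The inducible proteasome subunits did not share a direction. PSMB9, an immunoproteasome subunit, read 338.5 and 525.9 in CD133-high and 223.3 and 284.5 in CD133-low cells, 1.52-fold and 1.85-fold higher with CD133. PSMB10, another subunit of that form, read 1288 and 1207 in CD133-high and 2218 and 1843 in CD133-low cells, 1.72-fold and 1.53-fold lower. PSMB8, the remaining subunit, read 4.66 to 58.3 and lay below the floor on all arrays. PSMB9 and PSMB10 thus had opposite CD133 differences, each without overlap between the CD133 states, while neither reached 2-fold. Over all genes above the floor on at least 3 arrays, 25.2% were higher and 25.6% lower with CD133 without overlap.

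The endoplasmic reticulum chaperones had signals far above the floor, and the 3 CALR probe sets were lowest in E-cadherin-low CD133-high cells. CALR, the chaperone calreticulin, read 3021 and 2037 in CD133-high and 3374 and 3784 in CD133-low cells, so it was 1.86-fold lower with CD133 in E-cadherin-low cells. Its other 2 probe sets gave log2 ratios of -1.07 and -0.64 there. CANX, the chaperone calnexin, read 11409 and 8879 in CD133-high and 11334 and 10496 in CD133-low cells. PDIA3, the oxidoreductase of the loading complex, read 12937 and 12595 in CD133-high and 12941 and 10519 in CD133-low cells. On these probe sets neither CANX nor PDIA3 differed by more than 1.29-fold in any pair. The other CANX probe sets above the floor did not share 1 order. One read 1106 and 756.7 in CD133-high and 666.9 and 722.3 in CD133-low cells, up to 1.66-fold higher with CD133, and the other 2 differed by at most 1.28-fold. The 2 other PDIA3 probe sets differed by at most 1.31-fold. NLRC5, the class I transactivator, had 1 probe set, which read 11.2 to 51.7, below the floor on all arrays.

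Class II genes lay nearer the floor, and 6 of the 7 above it on at least 3 arrays were lowest in E-cadherin-low CD133-low cells. CIITA, the class II transactivator, read 76.4 and 86.5 in CD133-high cells and lay below the floor in CD133-low cells, at least 1.33-fold and at least 1.52-fold higher. Its other 2 probe sets lay below the floor on all arrays. CD74, the invariant chain that guides class II molecules to endosomes, read 196.7 and 196.3 in CD133-high and 69.3 and 32.4 in CD133-low cells, the last of these below the floor. This is 2.84-fold and at least 3.44-fold, with no overlap between the CD133 states. The same order held for 25.2% of all genes above the floor on at least 3 arrays. The 2 other CD74 probe sets lay below the floor on all arrays.

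The genes of the peptide-exchange factor HLA-DM and its inhibitor HLA-DO had different patterns. HLA-DMA, the DM alpha chain, read 882.2 and 813.0 in CD133-high and 585.7 and 265.5 in CD133-low cells, 1.51-fold and 3.06-fold higher with CD133. HLA-DMB, the DM beta chain, read 296.1 and 394.1 in CD133-high and 345.5 and 193.6 in CD133-low cells, which is 1.17-fold lower and 2.04-fold higher. Both were thus lowest in E-cadherin-low CD133-low cells. HLA-DOA, the DO alpha chain, read 117.6 and 99.9 in CD133-high and 101.9 and 187.5 in CD133-low cells, so the same array held its highest signal. This is an _x_at probe set, and one without that suffix had another order, with 81.3 and 65.8 in CD133-high and 35.4 and 17.2, below the floor, in CD133-low cells. HLA-DOA therefore has no settled direction. Of the 3 others, 2 passed the floor on 1 array and 0 on more.

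The alpha and beta chain genes of the DP, DQ and DR molecules also had different patterns. HLA-DPA1 read 318.0 and 197.4 in CD133-high and 158.5 and 57.5 in CD133-low cells, 2.006-fold and 3.43-fold higher with CD133. Its 2 other probe sets, nearer the floor, gave log2 ratios of 0.71 and, as a bound, 0.76 in E-cadherin-high cells and of, as a bound, -0.13 and 0.00 in E-cadherin-low cells. HLA-DPB1, its partner chain, read 84.7 and 94.4 on the CD133-high and CD133-low arrays of E-cadherin-high cells and lay below the floor on both E-cadherin-low arrays, as its other probe set did on all 4. HLA-DPA1 thus differed with CD133 in both states, and HLA-DPB1 passed the floor in E-cadherin-high cells alone. HLA-DQB1 read 498.5 and 545.9 in CD133-high and 443.5 and 188.5 in CD133-low cells, 1.12-fold and 2.90-fold higher. Of its 6 probe sets above the floor, 5 have the _x_at suffix, and the 1 without it was higher with CD133 by log2 1.63 and 1.44. Among E-cadherin-high cells 4 of the 6 were higher and 2 lower with CD133, at -0.67 and -0.52, and among E-cadherin-low cells 5 were higher and 0 lower. HLA-DQA1, the partner of HLA-DQB1, read at most 27.2, and its 3 probe sets lay below the floor on every array. HLA-DRB1 read 905.0 and 377.8 in CD133-high and 484.2 and 320.2 in CD133-low cells, from an _x_at probe set. HLA-DRA, the alpha chain with which HLA-DRB1 pairs, read 3.40 to 8.94 and had both probe sets below the floor on all arrays.

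**Figure D2:**
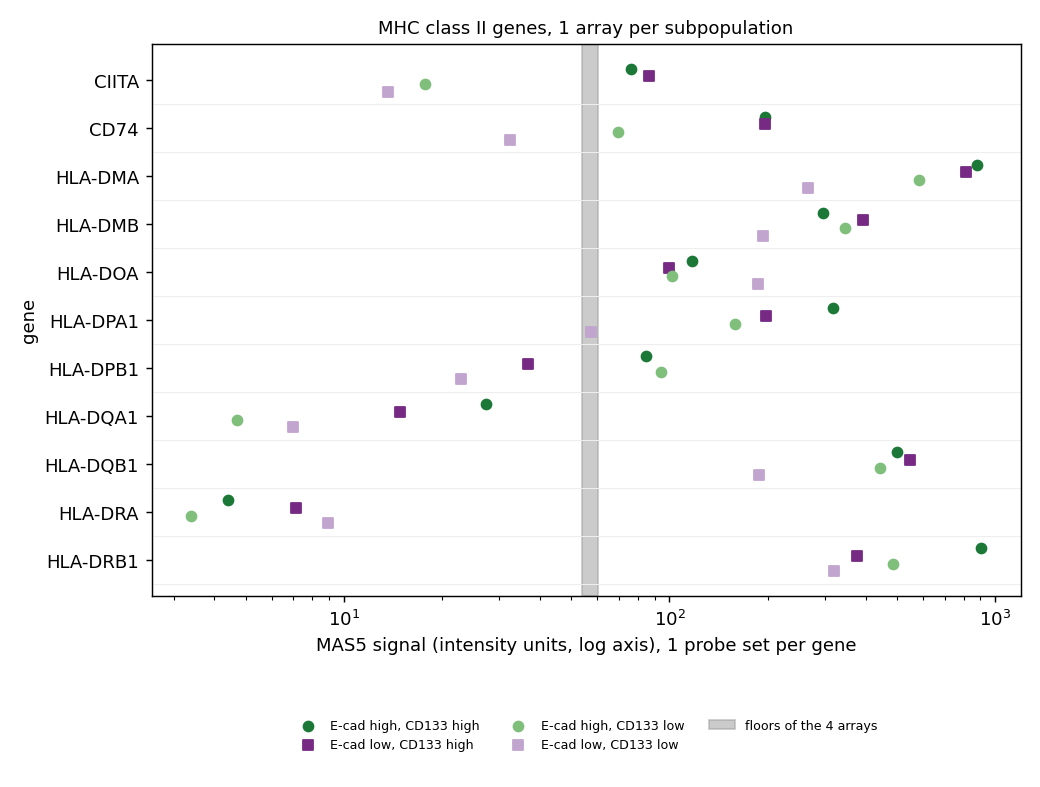
Signal of the 11 class II genes on the 4 arrays (x axis, MAS5 intensity on a log axis; y axis, gene), with 1 point per array and the floors of 53.7 to 60.3 as a grey band. CIITA and CD74 have both CD133-high arrays above both CD133-low arrays, and HLA-DRA and HLA-DQA1 lie left of the band on all 4.

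In the CD133 comparison, 3 of the 25 measured genes were at least 2-fold higher in CD133-high cells in both E-cadherin states: ERAP1, CD74 and HLA-DPA1. None was at least 2-fold lower in both. Over all 14083 measured genes, 2.45% were higher and 1.12% lower by this rule. By pathway this was 1 of 16 class I and processing genes and 2 of 9 class II genes. HLA-DPA1 stood just inside the threshold with a smaller fold of 2.006, and the nearest gene outside it, PSMB10, was lower by 1.53-fold in its smaller pair. CIITA and ERAP2 were measured only through the CD133-high arrays, so their direction was set by that filter. An additive limma fit over the same genes, with 1 residual degree of freedom, called 0 of the 25 at a Benjamini-Hochberg adjusted p under 0.05. The smallest adjusted p was 0.0635, for CD74, and 9 of the 25 had an unadjusted p under 0.05, against 16.7% of all genes. These were HLA-G, TAPBP, PSMB9, PSMB10, ERAP1, ERAP2, HLA-DPA1, HLA-DMA and CD74. Among them PSMB10 was lower with CD133, and the direction of ERAP2 was set by the filter. The 3 counts also fell away when a gene was taken as the mean over its probe sets, where 0 were counted, and HLA-DPA1 was not counted after quantile normalization.

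The promoters of ERAP1 and CD74, both counted with CD133, are shown with that of HLA-DMA, which had a CD133 difference of 3.06-fold in E-cadherin-low cells, and that of TAP1, which had one of 2.21-fold there. They are the 250 bases before the start of the gene in RefSeq (GRCh38.p14), read 5′ to 3′ on the gene's strand. Capitals mark matches on either strand to CCAAT (the Y box bound by NF-Y), AGCAAC (a core of the X box bound by RFX), TGACGTCA (a cyclic AMP response element), GAAA followed after any 2 bases by GAAA (an interferon response element) and TTCNNNGAA (a STAT site), where neighbouring matches can overlap.
ERAP1 (chr5:96807946-96808195, minus strand): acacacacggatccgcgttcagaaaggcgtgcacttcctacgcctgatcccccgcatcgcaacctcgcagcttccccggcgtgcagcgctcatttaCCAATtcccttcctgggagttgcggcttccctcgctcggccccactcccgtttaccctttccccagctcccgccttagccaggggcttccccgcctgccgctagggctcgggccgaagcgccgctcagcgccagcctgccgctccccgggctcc
CD74 (chr5:150412911-150413160, minus strand): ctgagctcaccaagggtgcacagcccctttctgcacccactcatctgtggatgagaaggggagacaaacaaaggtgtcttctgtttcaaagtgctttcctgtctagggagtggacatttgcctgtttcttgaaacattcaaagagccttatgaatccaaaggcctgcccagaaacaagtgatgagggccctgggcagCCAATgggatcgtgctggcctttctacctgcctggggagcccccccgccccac
HLA-DMA (chr6:32953098-32953347, minus strand): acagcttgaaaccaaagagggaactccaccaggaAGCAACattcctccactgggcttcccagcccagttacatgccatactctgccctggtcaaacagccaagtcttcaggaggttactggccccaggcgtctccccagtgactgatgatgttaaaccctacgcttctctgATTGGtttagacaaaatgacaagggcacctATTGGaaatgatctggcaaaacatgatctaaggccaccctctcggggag
TAP1 (chr6:32853705-32853954, minus strand): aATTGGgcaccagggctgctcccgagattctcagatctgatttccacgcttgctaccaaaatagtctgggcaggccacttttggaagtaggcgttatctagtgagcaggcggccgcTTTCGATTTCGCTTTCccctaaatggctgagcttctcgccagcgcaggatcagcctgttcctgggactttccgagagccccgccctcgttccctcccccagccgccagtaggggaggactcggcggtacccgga

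RefSeq promoters were matched by symbol for 24 of the 29 genes, 15 of class I and 9 of class II. CCAAT stood in 9 of 15 class I and 8 of 9 class II promoters, against 33% of all 27305 promoters. The windows of TAP1 and PSMB9 overlap, and the CCAAT match counted for each is the same stretch of bases. The windows of ERAP2 and HLA-DPB1 lie inside the genes ERAP1 and HLA-DPA1. In CD74 the CCAAT match lay 53 bases before the start and in ERAP1 154 bases. AGCAAC stood in 1 of 15 and 3 of 9, against 10.3%, and HLA-DMA held it 216 bases before the start. The exact pattern given above for an interferon response element matched in 6 of 15 class I promoters, against 3.07% of all promoters. These were the promoters of B2M, HLA-F, PSMB10, TAP1, TAP2 and TAPBP, and 0 of 9 class II promoters matched. Variants of the element were not searched for, so promoters without a match, those of HLA-B and HLA-C included, are not shown to lack it. In TAP1 the 2 matches to the pattern overlap, at 134 and 128 bases before the start. On the probe sets used for the 6 genes, TAP1, TAP2 and TAPBP were higher with CD133 in both E-cadherin states. B2M and PSMB10 were lower in both, and HLA-F differed in direction between them. Any part of this element in these differences was not tested. TTCNNNGAA stood in 1 of 9 class II promoters, that of HLA-DQA1, and in 0 of 15 class I promoters, against 6.78%. TGACGTCA stood in 0 of the 24, against 1.77%. The window of HLA-DPA1, the other gene counted with CD133, is not shown because it lies inside the neighbouring gene HLA-DPB1. It held no match to any of the 5, which says only that these letters are not in this window. TAP1 and PSMB9 stand head to head, with starts 488 bases apart, and both were higher with CD133 in either E-cadherin state. Whether this arrangement has a part in their ratios was not tested.

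The CD133 ratios were wider in E-cadherin-low cells, as a description of these arrays that was not tested. In E-cadherin-low cells 3 of 16 class I genes (TAP1, ERAP1 and ERAP2, the last with its direction set by the filter) and 5 of 9 class II genes (HLA-DMA, HLA-DMB, HLA-DPA1, HLA-DQB1 and CD74) were at least 2-fold higher with CD133, against 8.11% of all genes. In E-cadherin-high cells these were 1 of 16 and 2 of 9, against 5.04%. At least 2-fold lower with CD133 were 0 of the 25 in either state, where the shares of all genes were 3.24% in E-cadherin-high cells but 4.27% in E-cadherin-low ones. The median log2 ratio of class I genes was 0.05 in E-cadherin-high cells against 0.51 in E-cadherin-low ones, and that of class II genes 0.41 and 1.03, while the median of all genes was 0.00 in each. The class II median of 0.41 is the value of CIITA, a bound with its direction set by the filter. Within class I, the 6 heavy and light chain genes had medians of -0.21 and 0.41, and the 10 measured genes of peptide supply and loading 0.20 and 0.78. With the probe sets of a gene averaged, the class I median of 0.05 became -0.10, so class I has no settled direction in E-cadherin-high cells. The same averaging gave 0.26 for class I in E-cadherin-low cells and 0.17 and 0.55 for class II, and with the floor at the 65th percentile the class II median in E-cadherin-low cells was 0.41. Among genes above the floor on at least 3 arrays, both CD133-high arrays lay above both CD133-low arrays for 6 of 15 class I and 4 of 7 class II genes, against 25.2% of all such genes. They lay below for 3 of 15 class I genes (B2M, PSMB10 and CALR) and 0 of 7 class II genes, against 25.6%.

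**Figure D3:**
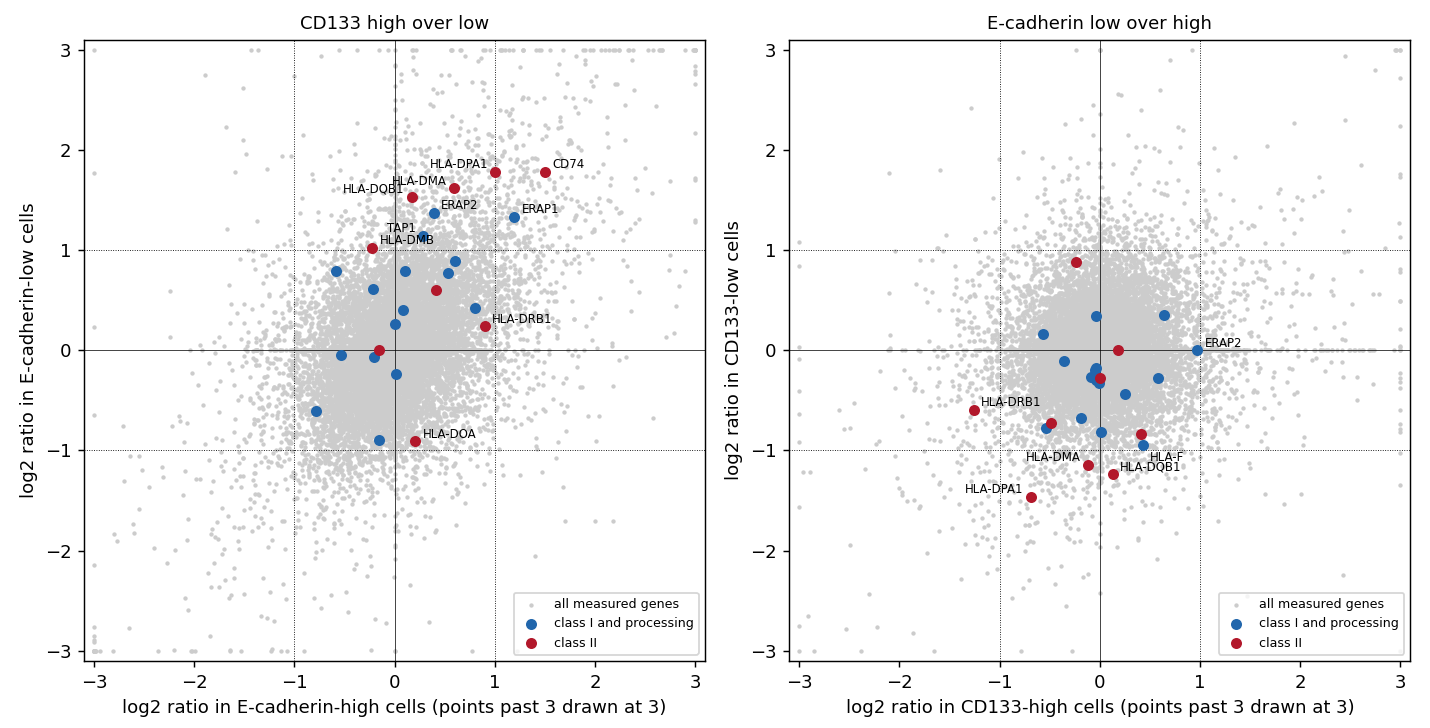
Log2 ratios of the 25 measured MHC genes over all 14083 measured genes (grey), CD133 high over low on the left and E-cadherin low over high on the right. Axes are the 2 pairs of arrays of each comparison, dotted lines mark 2-fold, and points past 3 are drawn at 3. On the left CD74, HLA-DPA1 and ERAP1 lie past 2-fold in both pairs, and on the right 0 of the 25 do.

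In the E-cadherin comparison, 0 of the 25 genes passed 2-fold upward in both pairs, against 0.476% of all genes. Downward in E-cadherin-low cells it was also 0, against 0.54%. The additive limma fit also called 0 at an adjusted p under 0.05, with 4 of 25 at an unadjusted p under 0.05 (TAPBP, HLA-DPA1, HLA-DPB1 and HLA-DRB1), against 6.82% of all genes. Of these, HLA-DPB1 was measured only through the E-cadherin-high arrays, so its direction was set by that filter. Single pairs passed 2-fold for 4 genes, each lower in E-cadherin-low cells. None was 2-fold higher in a single pair, against 3.81% of all genes in CD133-high cells, with 2.63% in CD133-low ones. HLA-DRB1 did so in CD133-high cells, by 2.40-fold, where 2.53% of all genes did. HLA-DPA1, HLA-DQB1 and HLA-DMA did so in CD133-low cells, by 2.76-fold, 2.35-fold and 2.21-fold, where 2.87% of all genes did. The class II median was -0.12 in CD133-high cells, with -0.73 in CD133-low ones, and the class I median -0.04 and -0.27. The class II median of -0.73 is the value of HLA-DPB1, a bound with its direction set by the filter. Without _x_at, _s_at and _a_at probe sets the class II median in CD133-low cells was -0.33. Under equal array medians, which moved the median of all genes in the CD133-high pair to -0.12, the class I and class II medians in that pair were -0.21 and -0.29. Quantile normalization gave a class I median of 0.01 there, so its sign in CD133-high cells is not settled.

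The wider ratios of both comparisons share 1 array, that of E-cadherin-low CD133-low cells. It held the lowest signal for 8 of 15 class I genes that lay above the floor on at least 3 arrays (ERAP1, HLA-B, HLA-E, HLA-F, PDIA3, TAP1, TAP2 and TAPBP) and for 6 of 7 class II genes, the exception being the _x_at probe set of HLA-DOA. Over all genes it was the lowest array for 27.1%. The E-cadherin-high CD133-high array was the lowest for 0 of these genes, against 19.9% of all genes. The E-cadherin-low CD133-high array was the lowest for 5 class I genes (B2M, CALR, CANX, HLA-C and PSMB10) and for HLA-DOA, against 29.2% of all genes, and the E-cadherin-high CD133-low array for HLA-G and PSMB9, against 23.7%. For HLA-C this rests on the probe set used, at 10625 against 10959 on the E-cadherin-low CD133-low array. Of the 13 probe sets of HLA-B, HLA-C, HLA-E and HLA-F, the other 12 were lowest on the E-cadherin-low CD133-low array. After quantile normalization the E-cadherin-low CD133-low array was lowest for 9 of 15 and 6 of 7, and under equal array medians for 8 of 15 and 6 of 7. Without _x_at probe sets it was 7 of 12 and 5 of 5. With 1 array for it, this subpopulation and its array cannot be told apart.

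**Figure D4:**
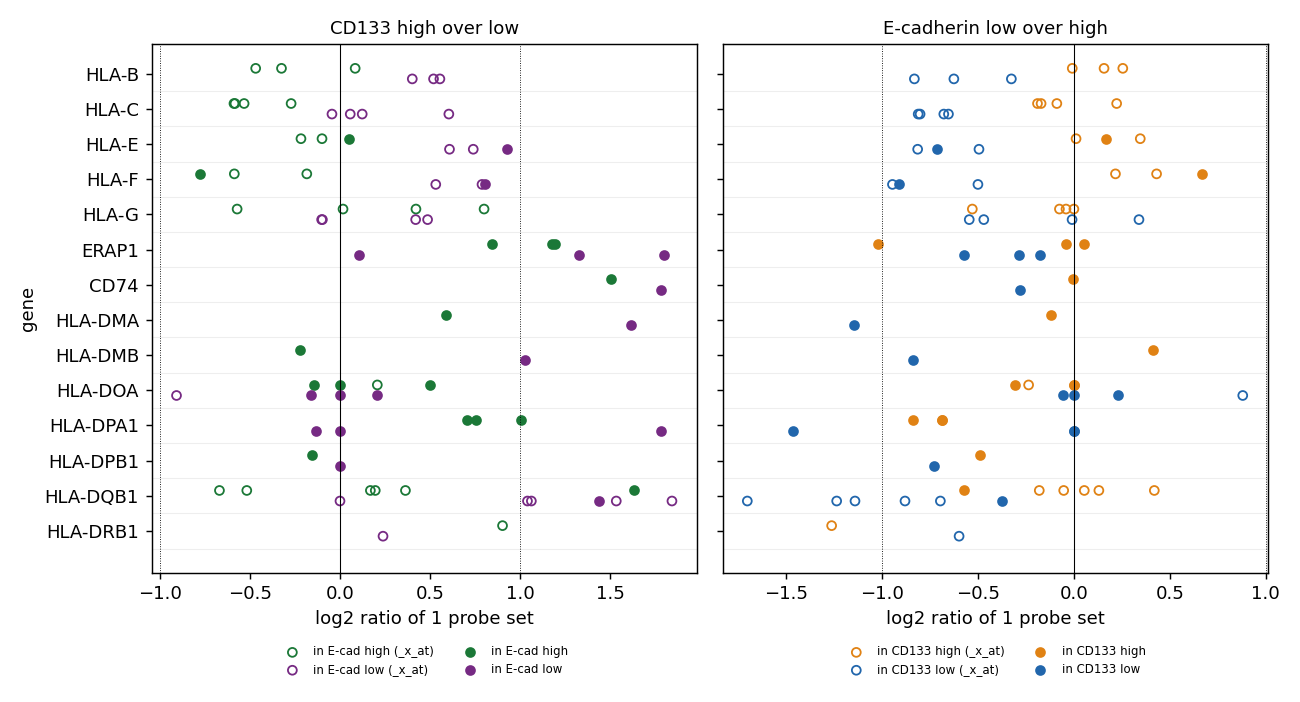
Log2 ratio of each probe set that passes the floor on 1 array or more, for 14 MHC genes (y axis), CD133 high over low on the left and E-cadherin low over high on the right. Open points are probe sets with the _x_at suffix, colours mark the pair of arrays, and dotted lines mark 2-fold. The 13 probe sets of HLA-B, HLA-C, HLA-E and HLA-F lie below 0 in CD133-low cells on the right, at -0.94 to -0.32.

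Most of the list lies together on chromosome 6, and its ratios are given here beside those of the other genes of that region. In RefSeq order 18 of the 29 genes lie between HLA-F and HLA-DPB1, and 11 lie elsewhere, among them B2M, CD74, ERAP1, CIITA and TAPBP, the last of these also on chromosome 6, past HLA-DPB1. Between the same ends stand 103 other protein-coding genes without a part in these lists, of which 58 were measured. In E-cadherin-low cells the median CD133 log2 ratio was 0.79 for the 15 measured MHC genes inside the region, 0.43 for the 10 outside it (0.26 without TAPBP) and 0.01 for the 58 neighbours. In CD133-low cells the median E-cadherin log2 ratio was -0.68 for those inside, -0.18 for those outside and -0.13 for the neighbours. The 58 measured neighbours held 1 gene counted as higher with CD133, the receptor NOTCH4 (1.07 and, as a bound, 2.09), against 2.45% of all genes. They held 0 genes counted in the E-cadherin comparison. This list of neighbours was made after the data were seen and is given with no test.

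Among related genes of the pathway, 1 was counted with CD133, as lower, and 0 with E-cadherin. Over all measured genes 1.12% were counted as lower and 2.45% as higher with CD133. CTSS, the endosomal protease that trims the invariant chain, read 40.1 and 53.2 in CD133-high cells, below the floor, and 175.7 and 138.8 in CD133-low cells. It was lower with CD133 by at least 3.27-fold and at least 2.30-fold. CTSS was measured only through the CD133-low arrays, so its direction was set by that filter. The other 11 measured genes of endosomal processing were not counted, and the list had CD133 medians of -0.03 and 0.35. RFX5, a subunit of the factor that binds the X box, read 7927 and 7993 in CD133-high and 5549 and 4372 in CD133-low cells. This is 1.43-fold and 1.83-fold higher without overlap, an order held by 25.2% of all genes above the floor on at least 3 arrays. The 7 measured promoter factors of MHC genes as a list had medians of 0.09 and -0.17.

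Most constitutive proteasome genes had CD133 ratios below 0, as the inducible subunit PSMB10 did and PSMB9 did not. Of 11 measured genes for constitutive subunits, activators and assembly, 10 had CD133 ratios below 0 in E-cadherin-high cells against 9 in E-cadherin-low ones, with medians of -0.48 and -0.24 and 0 counted. Over all genes 48.2% and 46.1% were below 0. The exception in both was PSME1, a subunit of the interferon-inducible proteasome activator, which read 2341 and 2107 in CD133-high and 1592 and 1194 in CD133-low cells, 1.47-fold and 1.76-fold higher, and in E-cadherin-low cells PSME4 lay at 0.03. Of 12 measured interferon signalling genes 0 were counted, and the medians were 0.06 and 0.20. IRF1, the transcription factor that carries interferon-gamma signals to class I genes, read 239.4 and 242.8 in CD133-high and 334.1 and 243.5 in CD133-low cells. IRF2 and IRF9, transcription factors of interferon responses that are named after their values were seen, were higher with CD133 by 1.97-fold and 2.22-fold and by 2.51-fold and 1.65-fold.

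The remaining lists of related genes, cell type markers apart, held no counted gene in either comparison. The 10 measured class I-like ligands and CD1 genes had CD133 medians of -0.03 and 0.62. Of these, MICA and MICB, stress ligands of the receptor NKG2D, and FCGRT, the Fc receptor heavy chain that pairs with B2M, are named after their values were seen. MICA read 538.1 and 1181 in CD133-high and 693.5 and 383.5 in CD133-low cells. FCGRT read 107.2 and 510.8 in CD133-high cells and lay below the floor in CD133-low cells, at least 1.87-fold and at least 8.95-fold higher. It was measured only through the CD133-high arrays, so its direction was set by that filter. MICB read 10341 and 16072 in CD133-high and 6866 and 6367 in CD133-low cells. All 3 were highest in E-cadherin-low CD133-high cells, as TAP1 and TAP2 were on the probe sets used. Of the same list, MR1, ULBP1 and ULBP3 were highest there too, and HFE, PROCR, ULBP2 and CD1C on other arrays. The 11 measured co-stimulatory and adhesion ligands had medians of -0.18 and -0.12, and the 11 further peptide editing and endoplasmic reticulum genes -0.10 and -0.24.

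**Figure D5:**
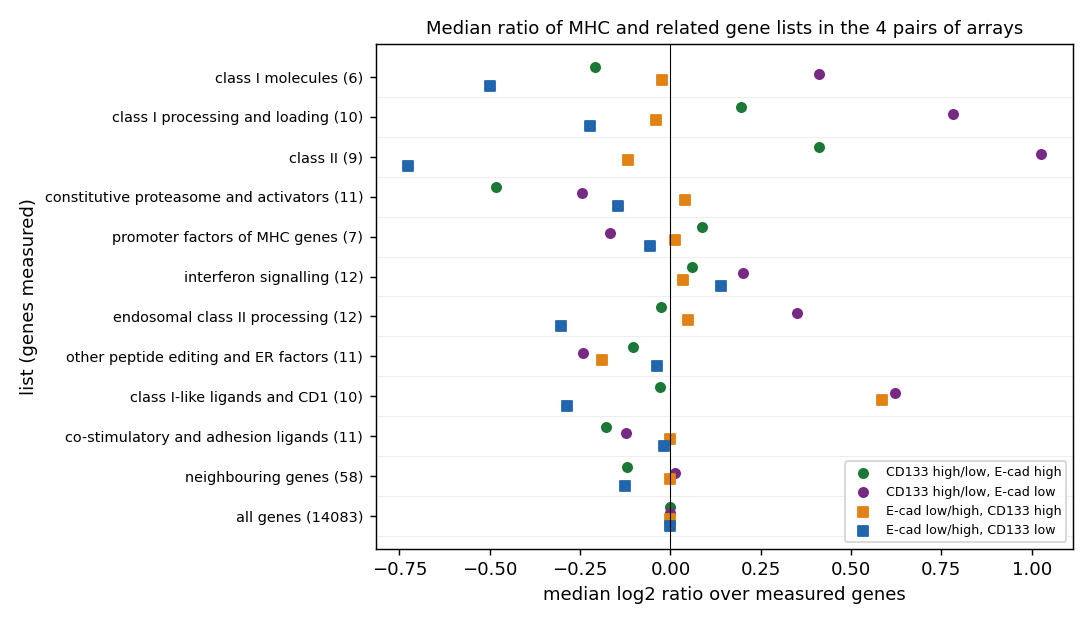
Median log2 ratio of the measured genes of each list of MHC and related genes, without the cell type markers (x axis), in the 4 pairs of arrays, with the number measured beside each list name on the y axis. Class II genes have a CD133 median of 1.03 in E-cadherin-low cells and an E-cadherin median of -0.73 in CD133-low cells, while the medians of all genes are 0.00. The median of -0.73 is the value of HLA-DPB1, a bound with its direction set by the filter.

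Markers of antigen-presenting blood cells were mostly below the floor. Of 6 macrophage and dendritic cell markers CD14, CD163, LYZ and AIF1 lay below it on all arrays, and CSF1R and ITGAX reached at most 81.5. Of 4 B-cell markers with a probe set, 3 (MS4A1, CD79B and PAX5) lay below it on all arrays, and CD79A read 177.7 to 216.4. Of 5 T and natural killer cell markers, 3 passed the floor on 1 array or more and 0 on all 4. The summed signal of 5 leukocyte markers was 1709 and 1548 in CD133-high and 906.3 and 894.2 in CD133-low cells. Within it PTPRC, the leukocyte phosphatase CD45, was counted, at 3.61-fold and 2.18-fold higher with CD133. Without PTPRC the sum was 462.9 and 445.6 in CD133-high and 560.7 and 389.2 in CD133-low cells, so the other 4 markers did not move together with CD133. The summed signal of 5 fibroblast markers was 2970 and 4122 in CD133-high and 1966 and 1827 in CD133-low cells, and that of 4 endothelial markers was 190.6 to 264.6 over the 4 arrays. The collagen gene COL1A1, at 1614 to 2087, held much of the fibroblast sum. The matrix proteoglycan genes LUM and DCN were counted as higher with CD133, LUM by 2.75-fold and 10.6-fold and DCN by 2.24-fold and at least 6.28-fold. COL1A2, another collagen gene, had signals of 65.1 and 434.7 in CD133-high cells, while both CD133-low arrays lay below the floor. Its CD133 difference was a bound of 7.62-fold among E-cadherin-low cells, against one of 1.13-fold among E-cadherin-high ones. Only the CD133-high arrays measured COL1A2, so the filter set its direction. PDGFRB lay below the floor on all arrays. The 4 measured fibroblast markers had a median CD133 log2 ratio of 0.76 in E-cadherin-high and of 2.79 in E-cadherin-low cells, against 1.03 for class II there. PTPRC, LUM and DCN moved with CD133 as CD74, HLA-DPA1 and ERAP1 did, and the part of such cells in those differences was not tested.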

How the data were processed

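Total RNA of 4 sorted PC14 subpopulations was hybridised to 4 one-colour Affymetrix arrays. The deposited table holds a linear intensity per probe set, made with MAS5 per the submitters' processing notes. Its mean without the top and bottom 2% was 500.1 on each array, so the authors had scaled the deposited intensity within arrays. The sources used here give no MAS5 version or scan date.

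Of 54675 probe sets, 62 controls, 1801 with several symbols and 11777 unnamed ones (controls included) were not used for genes. Signals below the floor (the 50th percentile) were set to it, and a pair with both arrays at the floor has a ratio of 0. A gene was counted at 2-fold or more in the same direction in both pairs of a comparison. The 2 comparisons use the same 4 arrays. All 29 members are named. Related genes are named when counted, up to 4 a list, plus IRF1, RFX5, CDH1 and PROM1; planned genes without a probe set of 1 symbol were not analysed here. Members, lists and alternatives were chosen with earlier results of these data known. Alternatives were quantile normalization, equal array medians, other floors, other folds, the mean over probe sets, fewer probe sets and an additive limma fit. The values without TAPBP and without PTPRC were added after seeing the data. The counting was tested on simulated data. Python 3.11.15, numpy 2.4.6, pandas 2.3.3, matplotlib 3.10.9, R 4.3.3 and limma 3.58.1 were used.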

Additional observations from a re-analysis of the deposited data

Results flagged for a closer look

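Beside the probe sets used above, 6 probe sets carry several symbols including HLA-DRB1, HLA-DQB1 or HLA-DQA1, and 3 of them lay above the floor on all 4 arrays although no comparison used them. The probe set shared by HLA-DRB4 and HLA-DRB1 read 336.7 and 274.4 in CD133-high and 301.4 and 223.5 in CD133-low cells. The one shared by HLA-DRB3, HLA-DRB4, HLA-DRB1 and HLA-DQB1 read 527.2 and 317.4 in CD133-high and 387.4 and 190.4 in CD133-low cells. The one shared by HLA-DRB5, HLA-DRB4, HLA-DRB1 and HLA-DQB1 read 531.1 and 360.8 in CD133-high and 369.8 and 216.7 in CD133-low cells. On all 3 the lowest array was that of E-cadherin-low CD133-low cells and the highest that of E-cadherin-high CD133-high cells, as for the HLA-DRB1 probe set used above. Both HLA-DRA probe sets read at most 8.94 on the same arrays. Which beta chain gene these probe sets count was not tested.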

How the results depend on the processing

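With 1 array per group, none could be left out, and no replicate block was fitted because the labels give no replicate numbers, although the additive limma fit holds each marker fixed while testing the other. The 3 genes counted with CD133 depended on the settings. The class I count of 1 was 2 with no floor or the 25th percentile (ERAP1 and ERAP2) and at 1.5-fold (ERAP1 and PSMB9). It was 0 as the mean over probe sets, at 3-fold, without _x_at, _s_at and _a_at probe sets, and in the additive limma fit. The class II count of 2 was 1 after quantile normalization (CD74) and 4 with no floor (HLA-DPA1, HLA-DQA1, CD74 and CIITA). It was 3 without _x_at probe sets, with or without the _s_at and _a_at ones (HLA-DQB1 gained), with the 25th percentile (CIITA) and at 1.5-fold (HLA-DMA). It was 0 with the floor at the 65th percentile, as the mean over probe sets, at 3-fold and in the limma fit. Of class I genes 1 (PSMB10) was counted as lower with CD133 at 1.5-fold. In the E-cadherin comparison 1 class II gene (HLA-DPB1) was lower with no floor or the 25th percentile, and 2 (HLA-DPA1 and HLA-DRB1) at 1.5-fold. The cause was not tested. The medians over both pairs kept their sign and moved by no more than the SD between the 2 pairs, although some moved by over 1.5 times. For CD133, class I (0.22, SD 0.33) became 0.12 as the mean over probe sets and 0.45 without _x_at probe sets, and class II (0.57, SD 0.43) became 0.95 without _x_at, _s_at and _a_at ones. For E-cadherin, class II (-0.55, SD 0.43) became -0.30 as the mean over probe sets, -0.34 without _x_at and -0.18 without _x_at, _s_at and _a_at ones, and class I stayed at -0.25 to -0.12 (-0.17, SD 0.16). Of 372 recomputed ratios of single genes, 337 stayed within that SD, 35 moved by more, and 0 of the counted genes changed sign. Of the 29 genes, 4 (PSMB8, NLRC5, HLA-DQA1 and HLA-DRA) never passed the floor and thus have no ratio.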
